A study of Mus musculus with 10 samples.

Results

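Cathepsins are the proteases of the lysosome, and 10 of them, Ctsa, Ctsb, Ctsc, Ctsd, Ctsh, Ctsk, Ctsl, Ctso, Ctss and Ctsz, were followed in adipocyte precursors (APs), the cells of fat tissue that give rise to adipocytes, cultured with or without the cytokine IL-4. They were taken by gene symbol from the 18384 genes with reads in at least 1 mRNA-seq library, and all 10 are among the 14009 genes with enough reads to be tested. The mRNA-seq data hold 3 control cultures (replicates 1, 2 and 3) and 3 cultures given IL4 treatment (replicates 4, 5 and 6). All are labelled Adipocyte precursor from the subcutaneous white adipose tissue of mice. By the study's methods the animals were C57BL/6J, the cells were selected with magnetic beads against CD45 and CD31 and then for SCA-1, and the treated cultures received IL-4 from the day after seeding and were incubated with it for 4 days. The age and sex of the animals behind these 6 libraries and any pooling of animals are not given in the sources used here. The submitters call the libraries biological replicates, without saying whether they came from separate animals.

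Most cathepsins are made as inactive proenzymes, tagged with mannose 6-phosphate in the Golgi, carried to endosomes and lysosomes and activated there at acid pH, where they break down proteins delivered by endocytosis and autophagy. The family name covers 3 chemistries. Ctsb, Ctsc, Ctsh, Ctsk, Ctsl, Ctso, Ctss and Ctsz are cysteine proteases related to papain, Ctsd is an aspartic protease, and Ctsa is a serine carboxypeptidase. Some have work outside the lysosome, such as the cleavage of collagen by Ctsk and the trimming of the invariant chain of MHC class II by Ctss. In fat tissue, cathepsins are expressed by precursor cells as well as by macrophages.

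The libraries held 28526782 to 28674604 expected counts in the control group and 28914003 to 29057787 in the IL-4 group. Control replicate 3 and IL-4 replicate 6 stood apart from the other libraries of their group in a way that followed transcript length. In IL-4 replicate 6 the median gene with a transcript under 2000 bases was higher than in replicates 4 and 5 by 0.25 on the log2 scale, and the median gene of 4000 bases or more differed by -0.25. In control replicate 3 these values were 0.12 and -0.11. The 10 cathepsins had a median of 0.22 in IL-4 replicate 6 and 0.14 in control replicate 3, and replicate 6 was the highest IL-4 library for 10 of 10 cathepsins. Not all of them have short transcripts. Ctsb (4756 bases) and Ctsc (6770 bases) were in the group of 4000 bases or more. Ctsa (3309), Ctsl (3509) and Ctso (3468) lay between 2000 and 4000 bases, a group with a median of 0.01 in IL-4 replicate 6. The part of transcript length in these shifts was not tested, and results are given below without these libraries where they change.

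After IL-4, 7 of the 10 cathepsins were higher, 1 was lower and 2 did not pass the test (edgeR quasi-likelihood test, Benjamini-Hochberg adjusted p under 0.05 over all genes tested). The 7 that rose were Ctsk, Ctso, Ctsl, Ctsh, Ctsz, Ctss and Ctsa, the 1 that fell was Ctsc, and Ctsb and Ctsd were not called. Over all genes tested, 19.0% were called higher and 18.4% were called lower. With a log2 fold change beyond 1 as a second requirement, Ctsk, Ctso, Ctsl and Ctsh were called higher and Ctsc lower, beside 5.77% and 5.26% of all genes. The median log2 fold change of the 10 cathepsins was 0.83, against 0.00 for all genes tested. Scaling by library totals in place of TMM lowered the median log2 fold change of all genes to -0.17 and changed the split of calls over all genes from 2663 higher and 2582 lower to 1704 higher and 4963 lower. Under that scaling the 7 cathepsins were still called higher, and Ctsd joined Ctsc among the lower ones.

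**Figure D1:**
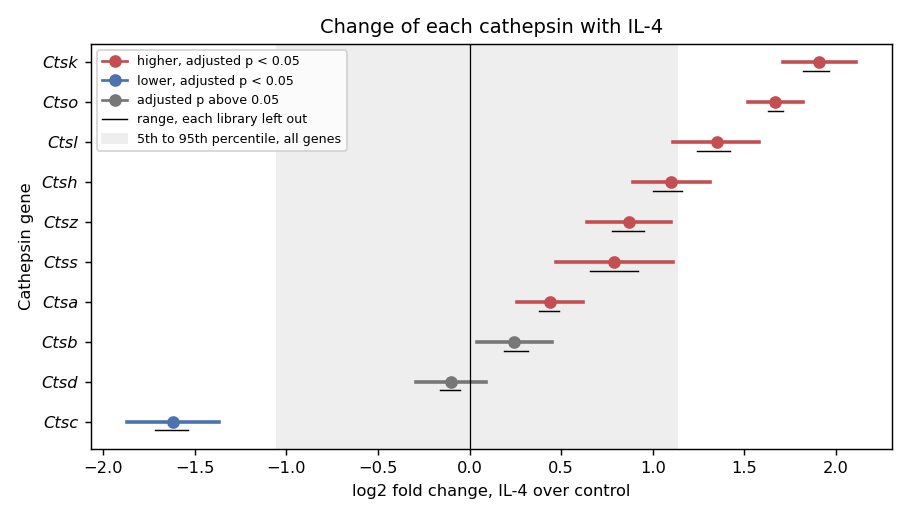
Log2 fold change of each cathepsin with IL-4 (dots) with its 95% confidence interval (thick bars) from edgeR. Thin black lines give the range when each library in turn was left out, and the grey band runs from the 5th to the 95th percentile of all 14009 genes tested, -1.05 to 1.13. Ctsk, Ctso and Ctsl lie above the band and Ctsc at -1.62 below it.

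Among the cysteine cathepsins, Ctsk, a collagenase best known from osteoclasts and also made by fibroblasts, had the largest rise. Its normalized counts (expected counts brought to a common depth through the TMM-scaled library sizes) were 4924, 4599 and 4921 in the control libraries. In the IL-4 libraries they were 16860, 17116 and 20230, so the lowest IL-4 library was far above the highest control. The log2 fold change was 1.91 (SE 0.09, edgeR adjusted p = 1.55e-06), a 3.75-fold rise, and 97.6% of all genes tested had a lower value. Without IL-4 replicate 6 it was 1.82. Ctsk lies at chr3:95499210-95509387 (GRCm38, RefSeq), and Ctss starts 17398 bases beyond its end on the same chromosome, with 1 annotated gene (Gm40096) in between. These neighbours had different changes in size, with 95% intervals of 1.71 to 2.11 for Ctsk and 0.47 to 1.11 for Ctss.

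Ctso, the least abundant cathepsin of the control cultures and one of the least studied of the family, had normalized counts of 809.9, 822 and 821 without IL-4. With IL-4 the counts were 2531, 2506 and 2783. Its log2 fold change of 1.67 (SE 0.06, edgeR adjusted p = 8.06e-07) had the smallest error of the 10 cathepsins. Control replicate 3 lay between the other control libraries for Ctso, unlike for most of the family.

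Ctsl, a strong endopeptidase of lysosomes that also processes other cathepsins, stood at 17025, 16356 and 18344 normalized counts in the control libraries. The IL-4 libraries held 39928, 41104 and 50563. The rise was 1.35 on the log2 scale (SE 0.10, edgeR adjusted p = 2.71e-05), and 1.24 without IL-4 replicate 6, the highest of them. Fractions occur in the deposited counts of Ctsl, Ctsa and Ctsb, which arise when the authors' counting divides a read between genes.

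Ctsh, an aminopeptidase with some endopeptidase activity, rose from 2046, 2040 and 2238 normalized counts to 4233, 4181 and 5147. Its log2 fold change was 1.10 (SE 0.09, edgeR adjusted p = 4.96e-05). This value sits just past the log2 threshold of 1, and its 95% interval, 0.89 to 1.31, runs across it. It was 0.93 with library totals, so the call beyond 1 depends on scaling while the call of a rise does not.

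Ctsz, a carboxypeptidase, and Ctss, an elastase-like protease that stays active at neutral pH, rose by less. For Ctsz the control libraries held 8262, 7957 and 9469 normalized counts and the IL-4 libraries 14521, 14683 and 17733, with a log2 fold change of 0.87 (SE 0.10, edgeR adjusted p = 3.08e-04). For Ctss the control libraries held 7647, 7192 and 9477 and the IL-4 libraries 12122, 13380 and 16527, with a log2 fold change of 0.79 (SE 0.14, edgeR adjusted p = 0.00277). In both genes replicate 3 was the highest control and replicate 6 the highest IL-4 library, without overlap between the groups. Ctss had the widest error of the 10, and its value ran from 0.66 without IL-4 replicate 6 to 0.92 without control replicate 3. The annotated span of Ctsz shares 12 bases with that of Nelfcd.

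Ctsc, also called dipeptidyl peptidase I, removes dipeptides from protein ends and is known for activating granule serine proteases in mast cells, neutrophils and cytotoxic lymphocytes. It fell with IL-4. Its normalized counts were 6461, 7671 and 8286 without IL-4 and 2176, 2504 and 2603 with it. The highest IL-4 library was thus below the lowest control. The log2 fold change was -1.62 (SE 0.11, edgeR adjusted p = 1.38e-05), with 2.32% of all genes tested lower than it, and ranged from -1.72 to -1.54 as each library was left out.

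Ctsb, the cysteine cathepsin with the highest FPKM in both groups, had normalized counts of 73210, 73446 and 84619 in the control libraries. The IL-4 libraries held 85825, 89231 and 99024, all above the highest control, although the margin to control replicate 3 was small. Its log2 fold change of 0.24 had a 95% interval of 0.04 to 0.45 and an edgeR adjusted p of 0.0594. DESeq2 called it (0.24, adjusted p = 0.0346), edgeR called it without control replicate 3 (0.32, adjusted p = 0.0338), without IL-4 replicate 6 (0.19, adjusted p = 0.0481) and without the low-count filter (0.25, adjusted p = 0.046), and with library totals its value was 0.07. The span of Ctsb shares 774 bases with that of Fdft1, a gene with 2994 normalized counts in the control group and 1663 with IL-4.

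**Figure D2:**
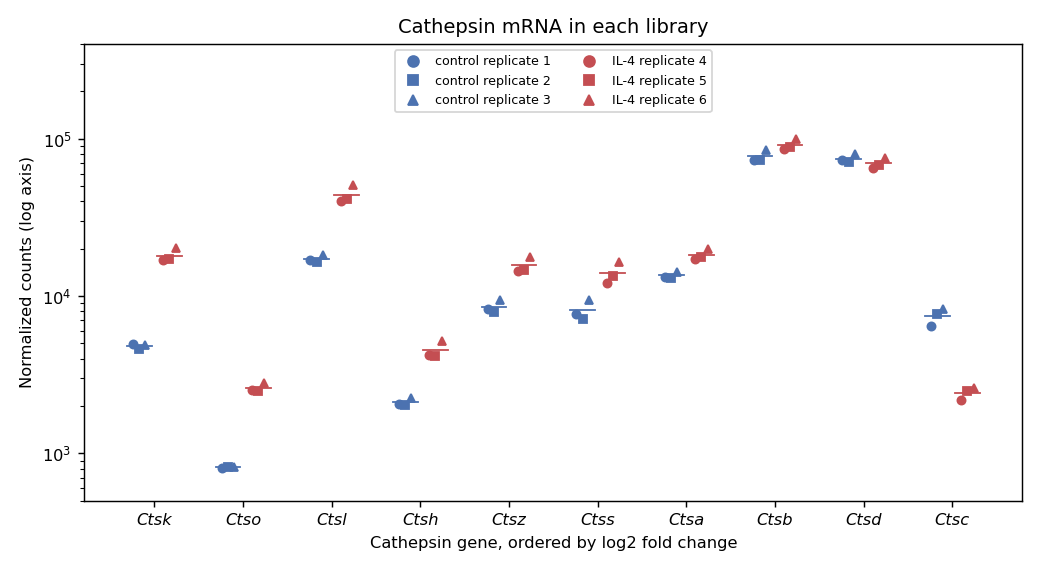
Normalized counts (log axis) of the 10 cathepsins in each of the 6 libraries, with marker shape for the replicate and a horizontal bar for the group mean. Only the Ctsd libraries overlap between groups, and IL-4 replicate 6 (red triangle) is the highest IL-4 library of every gene shown.

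Of the other chemistries, Ctsd, the aspartic protease, had the highest FPKM of the 10 in every library and did not pass the test. Control libraries held 73225, 71272 and 79943 normalized counts of Ctsd, and IL-4 libraries 65258, 68058 and 75794, with overlap between the groups. Its log2 fold change was -0.10, with a 95% interval of -0.29 to 0.09 (edgeR adjusted p = 0.369). With control replicate 3 and IL-4 replicate 6 both left out, an alternative added after the data were seen, edgeR called it lower at -0.12 (adjusted p = 0.0199). The same setting called Ctsb higher at 0.26 (adjusted p = 3.10e-05), which made 8 cathepsins higher and 2 lower.

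Ctsa, the serine carboxypeptidase that also protects beta-galactosidase and neuraminidase 1 in a complex, rose by a small amount. Its control libraries held 13289, 12974 and 14279 normalized counts and its IL-4 libraries 17159, 17779 and 20022. The log2 fold change was 0.44 (SE 0.08, edgeR adjusted p = 0.00269). Of its partners, Glb1 rose by 0.76 (edgeR adjusted p = 2.45e-05) and Neu1 had a value of 0.16 (adjusted p = 0.113). The Ctsa span shares 1515 bases with that of Pltp, which rose from 2980 to 5974 normalized counts, and 725 bases with Neurl2. Whether the libraries kept strand is not given in the sources used here, so reads from these shared stretches cannot be told apart.

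Counted over all genes tested, 7067 of 14009 had groups that did not overlap, and 9 of the 10 cathepsins were among the genes of this kind. An exact permutation test of 3 against 3 libraries cannot give a p below 0.1. The levels and sums that follow were planned as a description and are given without a test.

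Levels were compared between genes per transcript length, as the deposited FPKM. FPKM is scaled by depth without TMM, so differences between the groups in FPKM are not on the scale of the fold changes above. For Ctsd the log2 fold change was -0.28 with limma on log2(FPKM + 1), against -0.10 after TMM scaling. With library totals, which also scale by depth only, the median of all genes was -0.17. In the control group Ctsd led with a mean of 1442 FPKM, followed by Ctsb at 605. Ctss at 232 and Ctsz at 228 overlapped in their libraries, and below them came Ctsl at 184, Ctsa at 153, Ctsk at 117, Ctsh at 49.8, Ctsc at 41.4 and Ctso at 8.85 without overlap between neighbours. By rank among all genes, Ctsd was number 19 and Ctsb number 96 in the control group. With IL-4 the first places were still held by Ctsd at 1191 FPKM and Ctsb at 636. Ctsl at 416, Ctsk at 389.7, Ctsz at 369 and Ctss at 355 then formed a run in which each neighbour overlapped the next, and Ctsa at 185, Ctsh at 94.6, Ctso at 25 and Ctsc at 11.7 followed without overlap. Ctsk moved from rank 526 of all genes to rank 158, and Ctsc from rank 1827 to rank 5363, so that the last 2 places within the family were exchanged between Ctsc and Ctso.

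The summed FPKM of the 10 cathepsins was 2967, 2875 and 3342 in control replicates 1 to 3 and 3366, 3494 and 4161 in IL-4 replicates 4 to 6. The means, 3062 ± 248 and 3673 ± 427 (SD, n = 3 each), stand in a ratio of 1.2, a log2 ratio of 0.26 that was 0.16 without IL-4 replicate 6, 0.33 without control replicate 3 and 0.23 without both. The margin between control replicate 3 and IL-4 replicate 4 was narrow in FPKM. With FPKM rescaled to the same total in every library (TPM), the sums were 7093 to 7694 in untreated and 8441 to 9173 in treated cultures. Neither sum includes TMM scaling. The make-up of the sum differed by more than its size. Ctsd held 47.1% ± 0.549 of it without IL-4 and 32.5% ± 0.678 with IL-4 (SD, n = 3 each). Ctsk held 3.83% and 10.6%, Ctsl 6.03% and 11.3%, and Ctsc 1.35% and 0.32%. The share of Ctsa was 5.02% and 5.03%, the same within the spread between libraries. Since a share is a ratio within a library, a rise of one gene lowers the share of the others.

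**Figure D3:**
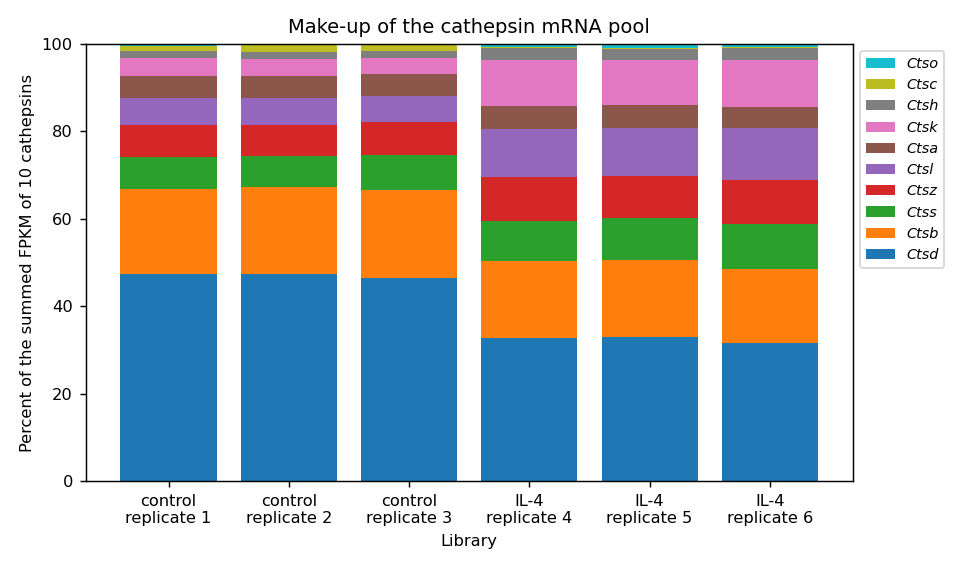
Percent of the summed FPKM of the 10 cathepsins that each gene holds, by library (bars, stacked to 100). The Ctsd share is 46.5 to 47.5% without IL-4 and 31.7 to 32.9% with it, while Ctsk goes from 3.61 to 4.03% up to 10.4 to 10.7%.

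Ratios between cathepsins were also taken within each library. The FPKM ratio of Ctsl to Ctsd was 0.129, 0.127 and 0.127 without IL-4 and 0.34, 0.335 and 0.371 with IL-4. Ctsk over Ctsc, the pair at the ends of the family's range of change, had a ratio of 3.35, 2.63 and 2.6 without IL-4 and 34.5, 30.4 and 35 with IL-4. This pair was chosen for its difference. Ctsk over its neighbour Ctss went from 0.548, 0.544 and 0.442 to 1.18, 1.09 and 1.04, so Ctss was the more abundant of the pair in every control library and the less abundant in every IL-4 library.

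Genes listed as protease inhibitors, not all of which act on the cathepsins followed here, changed in both directions. Of 11 inhibitor genes tested, 6 were higher and 4 lower, beside 19.0% and 18.4% of all genes tested. Their median log2 fold change was 0.45. Cst3, which encodes the secreted inhibitor cystatin C and was the most abundant of them, rose by 0.45 (SE 0.12, edgeR adjusted p = 0.0228), a call lost with library totals (0.28, adjusted p = 0.125), without control replicate 1 (0.42, adjusted p = 0.0873) and without control replicate 2 (0.39, adjusted p = 0.0877). The serpins Serpina3g and Serpinb1a, which can block cysteine cathepsins and granule serine proteases respectively, rose by 4.78 (adjusted p = 5.02e-08) and 1.58 (adjusted p = 6.06e-06). Serpina3g, at 5.24, 5.07 and 5.9 FPKM in the control libraries, reached 126, 129 and 140.2 FPKM with IL-4. Ctla2b, which encodes a protein resembling the propeptide of cysteine cathepsins, had a log2 fold change of -2.82 (edgeR adjusted p = 1.48e-05). The counts of higher and lower inhibitor genes include the Serpinb genes. Of these, Serpinb1a and Serpinb6a (0.57) were higher, and Serpinb6b (-0.87) and Serpinb9 (-0.33) were lower. Apart from the Serpinb genes, the list still held both directions, with Cst3 and Serpina3g among the higher genes and Ctla2a (-0.96) and Ctla2b lower. Cst6, also among the higher genes, had control counts of 13, 6 and 10 and entered the test through its IL-4 reads. The FPKM of the 8 cysteine cathepsins summed to 1466 ± 138 without and 2298 ± 296 with IL-4 (SD, n = 3 each), and that of the cystatins Cst3, Cstb, Cst6 and Cst7 to 538 ± 56.2 and 607 ± 113. Cysteine cathepsin over cystatin was 2.76, 2.73 and 2.7 in untreated cultures and 3.94, 3.91 and 3.58 in the cultures that received it.

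Among other lysosomal genes, more were called higher than lower, beside 19.0% higher and 18.4% lower over all genes tested. Of 35 other lysosomal hydrolases, 21 were higher and 0 lower by edgeR, with a median log2 fold change of 0.35. At an unadjusted p under 0.05 the hydrolases had 22 higher and 0 lower, DESeq2 gave 21 and 0, and library totals gave 17 and 2. Acp5, the tartrate-resistant acid phosphatase of osteoclasts and macrophages, rose by 3.13 (edgeR adjusted p = 6.31e-07), Naglu, an enzyme of heparan sulfate breakdown, by 1.50 (adjusted p = 7.18e-07), and Scpep1, a carboxypeptidase and the most abundant of the list, by 0.41 (adjusted p = 9.33e-04). Among 29 genes of the lysosomal membrane and its proton pump, 14 were higher and 1 lower, with a median of 0.21, and 3 were lower without IL-4 replicate 6. Atp6v0d2, a pump subunit typical of osteoclasts, rose by 3.67 (edgeR adjusted p = 1.47e-07), the subunit Atp6v0a1 by 1.03 (adjusted p = 3.39e-06) and the tetraspanin Cd63 by 0.50 (adjusted p = 0.0108, lost with library totals at 0.33, adjusted p = 0.0632).

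**Figure D4:**
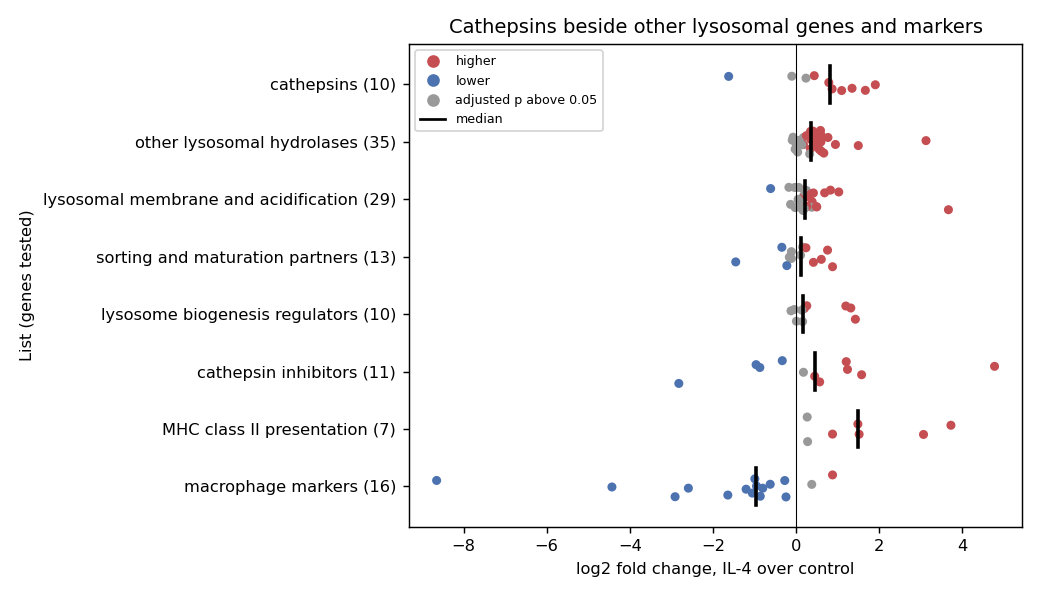
Log2 fold change with IL-4 of each gene tested in the 10 cathepsins and 7 lists, with the number tested in brackets, the median as a black bar, red for higher, blue for lower and grey for an adjusted p above 0.05. The cathepsin median is 0.83, that of the other hydrolases 0.35 and that of the macrophage markers -0.97.

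Of 13 genes that sort and mature lysosomal enzymes, 5 were higher and 3 lower, with a median log2 fold change of 0.11. Over all genes tested, 19.0% were called higher and 18.4% lower, so the share of lower genes was near that of all genes. Without control replicate 2 these were 3 higher and 1 lower, and without control replicate 3 there was 1 lower. Psap, the saposin precursor that also takes part in bringing cathepsins to the lysosome, was the most abundant and rose by 0.88 (edgeR adjusted p = 1.99e-05), and the sorting receptor Sorl1 fell by 1.45 (adjusted p = 3.55e-04) from a low level of 0.53 FPKM. Lgmn, the asparaginyl endopeptidase that cleaves cathepsins into their mature chains, had a value of -0.11 (adjusted p = 0.364), and it is named here after its value was seen. Of 10 regulators of lysosome formation, 5 were higher and 0 lower by edgeR, with a median of 0.18. Both an unadjusted p under 0.05 and DESeq2 gave 5 and 0, and library totals gave 3 and 2. Tfec rose by 1.43 (edgeR adjusted p = 4.85e-05), Mitf by 1.32 (adjusted p = 6.98e-06) and Rragd, a GTPase of the nutrient-sensing complex on lysosomes, by 1.20 (adjusted p = 1.54e-04). Tfec and Mitf belong to the same family of transcription factors as Tfeb, which had a value of 0.16 (adjusted p = 0.355). Lamtor1, the most abundant of the list, had a value of 0.14 (adjusted p = 0.279), which was -0.03 with library totals.

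Members of the Mitf and Tfeb family bind the letters CACGTG, an E-box at the core of the element shared by many lysosomal genes, and STAT6, which acts behind the IL-4 receptor, prefers TTC and GAA with 4 free bases between them. These motifs were searched together with the form with 3 free bases, TTCNNNGAA, bound by other STAT factors. The search covered RefSeq promoter windows (GRCm38.p6), 250 bases before to 50 bases after a start of the gene. Each motif reads the same on both strands, and one stretch can hold both STAT forms. Windows were at hand for 8 of the 10 cathepsins, with more than 1 for Ctsa and none for Ctsb and Ctsh. CACGTG was in a window of 3 of the 8 genes, beside 2187 of all 27025 genes with a window and 7.15% of all 32851 windows. Those genes were Ctsd (245 and 98 bases before the start), Ctsl (236 bases before) and Ctsa (12 bases before and at base 5 after). Distances are from the start used for each window. For Ctsd this is where the annotated gene begins. The Ctsl window, up to 64370770, lies inside the annotated minus-strand gene, which reaches to 64370772, so its match is inside too. The Ctsa matches are in the window from 164833523, inside the gene, and its window at the annotated start (164832872) held none. TTCNNNGAA was in Ctsc (236 bases before the start), beside 8.3% of all windows, and the form with 4 free bases, in 6.95% of all windows, was in none of the 8. The windows of Ctsz, Ctso, Ctsk and Ctss held none of these letters. A match is a description of the letters and not a measured site.

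Windows are printed for the genes with a match, of which Ctsl and Ctsa rose, Ctsc fell and Ctsd was not called. They are also printed for Ctsk, which had the largest rise and no match. Each runs from 250 bases before the start to 20 bases from it, read 5′ to 3′ on the gene's strand, with matches in capitals.
Ctsd, chr7:142387808-142388077, minus strand: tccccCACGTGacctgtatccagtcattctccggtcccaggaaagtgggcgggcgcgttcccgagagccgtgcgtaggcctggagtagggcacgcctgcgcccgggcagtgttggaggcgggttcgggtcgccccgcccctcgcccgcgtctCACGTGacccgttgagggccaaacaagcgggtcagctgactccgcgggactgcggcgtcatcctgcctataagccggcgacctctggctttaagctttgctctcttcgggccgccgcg
Ctsl, chr13:64370501-64370770, minus strand: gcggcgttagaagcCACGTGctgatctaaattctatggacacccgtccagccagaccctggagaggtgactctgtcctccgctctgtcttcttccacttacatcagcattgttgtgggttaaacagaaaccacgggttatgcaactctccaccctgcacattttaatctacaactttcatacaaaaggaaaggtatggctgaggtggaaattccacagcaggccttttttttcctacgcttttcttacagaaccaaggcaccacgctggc
Ctsa, chr2:164833523-164833792, plus strand: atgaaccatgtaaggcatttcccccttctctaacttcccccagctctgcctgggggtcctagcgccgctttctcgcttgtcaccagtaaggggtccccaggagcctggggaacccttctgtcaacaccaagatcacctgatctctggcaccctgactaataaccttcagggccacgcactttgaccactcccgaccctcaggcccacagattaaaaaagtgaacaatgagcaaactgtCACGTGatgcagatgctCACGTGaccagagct
Ctsc, chr7:88277835-88278104, plus strand: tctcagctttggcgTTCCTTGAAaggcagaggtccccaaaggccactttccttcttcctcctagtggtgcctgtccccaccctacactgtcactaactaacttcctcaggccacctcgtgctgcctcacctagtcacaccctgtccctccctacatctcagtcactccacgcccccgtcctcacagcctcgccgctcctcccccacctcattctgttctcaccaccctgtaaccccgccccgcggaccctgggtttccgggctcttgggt
Ctsk, chr3:95498960-95499229, plus strand: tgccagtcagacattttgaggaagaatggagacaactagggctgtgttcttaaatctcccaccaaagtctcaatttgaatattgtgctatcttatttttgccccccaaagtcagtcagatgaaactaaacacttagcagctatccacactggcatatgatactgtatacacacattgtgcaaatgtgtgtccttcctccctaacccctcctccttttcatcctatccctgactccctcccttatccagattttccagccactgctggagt

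CACGTG was thus in the printed windows of genes with log2 fold changes of -0.10, 0.44 and 1.35, and in none of the window of Ctsk at 1.91. In the other lists it was found in 6 of 11 genes of sorting and maturation, 6 of 28 other hydrolases and 6 of 23 genes of the membrane and proton pump. Over all genes with a window it was found in 2187 of 27025.

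Among the partners of single cathepsins, the genes of MHC class II presentation, the pathway in which Ctss and Ctsl act, had 5 of 7 tested higher and 0 lower by edgeR, with a median log2 fold change of 1.49. At an unadjusted p under 0.05 these were 6 and 0, and DESeq2 gave 6 higher and 2 lower. All genes tested had 19.0% called higher and 18.4% called lower by edgeR. Cd74, the invariant chain, rose by 3.07 (edgeR adjusted p = 7.37e-06) and H2-Ab1 by 1.49 (adjusted p = 6.99e-04), at levels of 1.51 and 1.95 FPKM without IL-4 and 11.3 and 4.84 FPKM with it. H2-Eb1 rose by 1.52 (edgeR adjusted p = 0.011) from 0.18 to 0.467 FPKM, with an adjusted p of 0.0507 without control replicate 1. H2-Aa, at 0.03 to 0.1 FPKM in the control libraries, was at 0.82 to 0.89 FPKM with IL-4. Both had few control reads (7, 13 and 5 counts of H2-Eb1, and 2, 3 and 1 of H2-Aa) and entered the test through their IL-4 reads. Ifi30, a lysosomal thiol reductase of antigen processing, was the most abundant of the list and rose by 0.88 (adjusted p = 0.002). These class II genes stayed well below the 355 FPKM of Ctss. Granule serine proteases, some of which Ctsc activates, were barely present. Of 11 on the list, 2 had enough reads to be tested, and their summed FPKM was 0.69 to 1.04 in the control and 2.26 to 2.94 in the IL-4 libraries. Tpsab1, a mast cell tryptase, was at 0 to 0.1 FPKM without and 1.04 to 1.81 FPKM with IL-4. It had control counts of 0, 3 and 0 and entered the test through its IL-4 reads. Among the remaining cathepsin genes of the mouse, Ctsf was the 1 of 13 with enough reads, and rose by 1.06 (SE 0.07, edgeR adjusted p = 1.71e-05) from 15.8 to 29.2 FPKM.

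The cells were labelled Adipocyte precursor, and markers of such cells were present at a summed FPKM of 1377 to 1410 in the controls and 1500 to 1610 in the IL-4 libraries. Of these 11 markers, 5 were called higher and 3 lower, beside 19.0% and 18.4% of all genes tested. Pdgfra was at 55.3 and 71.4 FPKM and Ly6a, which encodes the selected SCA-1, at 120.5 and 245 FPKM, both higher, together with Cd34, Pi16 and Dcn. Pdgfrb, at 189.8 and 107 FPKM, was lower (-0.66, edgeR adjusted p = 9.89e-04), as were Lum and Dlk1. Markers of macrophages, cells that are rich in cathepsins and carry CD45, were present as well, at 4302 to 5665 summed FPKM in the control and 1646 to 2269 in the IL-4 libraries, led by Lyz2 at 2739 and 776 FPKM. Of these 16 markers, 14 were lower, 1 (Cd163) was higher and 1 (Cd68) had a value of 0.38 (edgeR adjusted p = 0.0572). Without control replicate 3 or without IL-4 replicate 4, 2 were higher and 11 lower. Csf1r, the receptor that macrophages need to survive, had a log2 fold change of -1.05 (adjusted p = 2.11e-05), and Ptprc, which encodes CD45, -0.99 (adjusted p = 1.87e-05). Ctsc had the direction of most of these markers, and Ctsk, Ctso, Ctsl, Ctsh, Ctsz, Ctss and Ctsa had the opposite one. In bulk samples, fewer cells of a type and less RNA per cell cannot be told apart, and the part of macrophages in the cathepsin values was not tested.

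**Figure D5:**
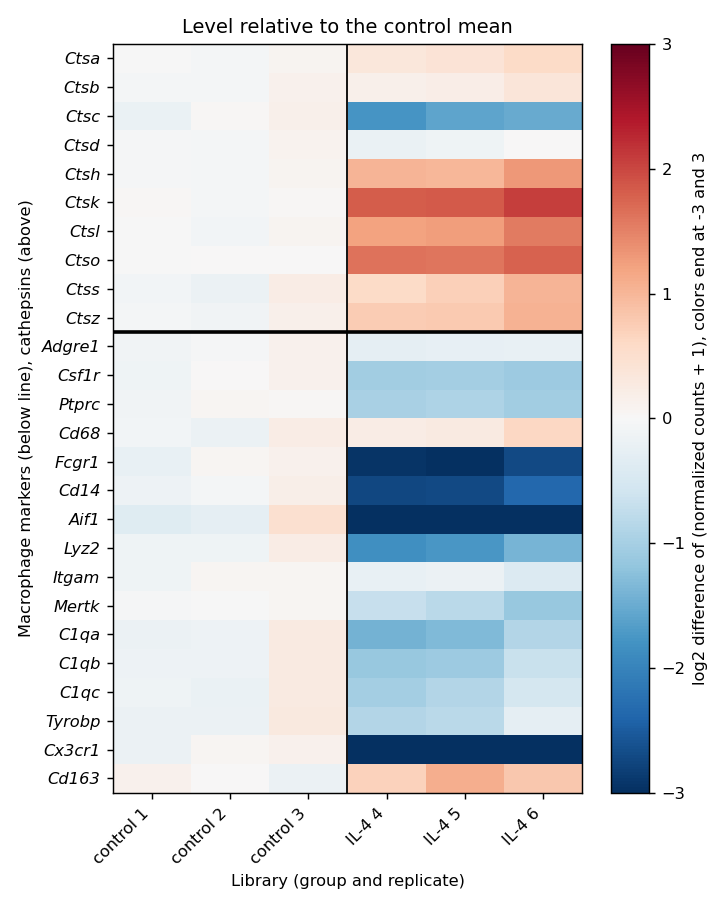
Log2 difference of normalized counts plus 1 from the control mean in each library, for the 10 cathepsins above the line and 16 macrophage markers below it, with colors ending at -3 and 3. Ctsc, at -1.78 to -1.52 with IL-4, has the direction of markers such as Csf1r at -1.09 to -1.02, while Ctsk is at 1.81 to 2.07.

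Of 11 genes that macrophages are known to switch on with IL-4, such as Retnla, Chil3 and Arg1, 8 were tested and all 8 were higher. Their list had a summed FPKM of 84.2 to 109.6 in the control and 3982 to 5344 in the IL-4 libraries. Genes with few control reads, such as Ccl24 (2, 0 and 2 counts) and Retnla (2, 2 and 18), entered the test through their IL-4 reads, so only a rise could be called. Ccl17, Ccl22 and Cd209a were not tested, and Ccl17 had mean normalized counts of 5.37 without and 1.39 with IL-4. Markers of osteoclasts and multinucleated giant cells, in which Ctsk is a defining protease, were at 26.9 to 27.2 and 118 to 133 summed FPKM. Of 7 tested, 4 were higher and 1 lower, beside 19.0% and 18.4% of all genes tested. Among the 4 was Ocstamp, which had control counts of 5, 3 and 2 and entered the test through its IL-4 reads. Acp5, Atp6v0d2 and the integrin chain Itgb3 (1.97, edgeR adjusted p = 5.22e-06) were among the higher ones, and Nfatc1, the master regulator of osteoclasts, had a value of -0.83 (adjusted p = 1.11e-04). Genes of the marker lists were named after their values were seen. Summed FPKM of endothelial markers was 16.6 to 17.3 and 12.3 to 12.7. That of dendritic cell markers was 3.24 to 3.64 and 27.4 to 29.1, with 2 of 3 tested higher. Itgax, also expressed by macrophages, had 1.61 and 25 FPKM, and Batf3 had 0.29 and 1.69 FPKM (2.69, edgeR adjusted p = 3.12e-04). Batf3 had control counts of 4, 4 and 8 and entered the test through its IL-4 reads. Zbtb46 was at 1.35 and 1.22 FPKM, and Flt3, Xcr1, Clec9a and Cd209a were near 0. Among mature adipocyte markers, summing to 32.9 to 38.8 and 55 to 78.6 FPKM, Fabp4 had 34.8 and 66.1 FPKM, while Adipoq, Plin1 and Cfd were near 0 and Cidec, Lep and Retn were not listed. Lymphocyte markers were at 0 to 0.37 summed FPKM over all libraries and neutrophil and mast cell markers at 0.53 to 1.07. The part of these cells in the cathepsin values was not tested.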

How the data were processed

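RNA from 3 control and 3 IL-4 cultures was poly(A)-selected and sequenced on a BGISEQ-500. Per the study's methods and the labels, reads were filtered with SOAPnuke, and gene levels were computed with Bowtie2 and RSEM. HISAT, StringTie and mm10 are also named, and versions are not given in the sources used here. The deposited files give expected counts per gene, not normalized by the authors. They also give FPKM, for which the authors divided by length and depth. The deposited length column was used to group transcripts. An unlisted gene was taken as 0. The 1 row naming no gene, with 0.00016% of counts, was left out.

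After rounding, low genes were dropped by filterByExpr (at least 10 counts, total at least 15), and the groups were compared with edgeR 4.0.16 in R 4.3.3 by its quasi-likelihood test after TMM scaling. P-values were adjusted by Benjamini-Hochberg over the 14009 genes. Alternatives used DESeq2 1.42.0, limma 3.58.1 on log2 FPKM with a pseudocount of 1 or 0.1, other scalings, no filter and each library left out, and, added after the data were seen, replicates 3 and 6 both left out. Tables were joined in Python 3.11.15 with pandas 2.3.3. Replicate pairs differed by more than sampling noise (chi-square per degree of freedom 2.43 to 43.5). Depth is given with the results, and with these counts the spread between libraries, a biological coefficient of variation of 0.0939, sets the precision.

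Members and gene lists (8 of pathway genes, 9 of cell markers) were chosen with earlier results of these data known. Named genes are the members and, per pathway list, the genes called beyond a log2 fold change of 1 (all if 4 or fewer, otherwise the 2 largest rises and 2 largest falls with a mean of at least 50 normalized counts), plus the gene with the highest FPKM. Other genes were named after their values were seen. The small RNA files were not used.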

Additional observations from a re-analysis of the deposited data

How the results depend on the processing

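Under the 7 other settings and the 6 that each leave out a library, the 7 rises and the fall of Ctsc kept their direction and their call. With library totals, limma on log2(FPKM + 1) and limma on log2(FPKM + 0.1), in that order, 1704, 1697 and 1694 genes were called higher and 4963, 4916 and 4904 lower; beyond a log2 fold change of 1, limma with a pseudocount of 1 called 348 and 352. These settings use no scaling between libraries other than depth. Ctsd was called lower with library totals (-0.27, adjusted p = 0.0374) and with replicates 3 and 6 both left out (-0.12), which gave 2 cathepsins lower in each. Ctsb was called higher with DESeq2 (0.24), with no filter (0.25) and with both replicates left out (0.26), and as each library was left out its value ran from 0.19 to 0.32. Lamtor1 changed sign to -0.03 with library totals and -0.04 with both limma settings. The cause was not tested.

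Counts in the lists moved under the same 3 settings. Sorting partners had 3, 3 and 3 higher, with 5 lower under library totals. Regulators of lysosome formation had 3 higher and 2 lower in each, and other hydrolases 17 higher and 2 lower in each. Membrane and proton pump genes had 8, 6 and 6 higher and 5 lower in each. With DESeq2 and with no filter, other cathepsins had 1 lower, MHC class II genes 2 lower, granule proteases 3 higher and 1 lower, and macrophage markers 2 higher. With both replicates left out, membrane genes had 3 lower and macrophage markers 2 higher. As each library was left out, sorting partners had 3 to 5 higher and 1 to 3 lower, and membrane genes 1 to 3 lower. Macrophage markers then had 1 to 2 higher and 11 to 14 lower, and other hydrolases 18 to 22 higher.

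No paired analysis was possible because the control and IL-4 mRNA libraries share no replicate number. In the controls Ctso had the fewest reads of the 10 cathepsins, 852 to 875, and so the largest counting error there. Its fold change still had the smallest SE of the 10, 0.06. In the IL-4 libraries Ctsc had the fewest reads, 2034 to 2521.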
